A study of Mus musculus with 6 samples.

Results

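The RNA-seq data were examined for 9 genes that encode immune checkpoint and costimulatory ligands or their close partners: Cd274 (PD-L1), Pdcd1lg2 (PD-L2), Vsir (VISTA), Havcr2 (TIM-3), Lgals9 (galectin-9), Sirpa (SIRP alpha), Cd80, Cd86 and Cd40. They were chosen by symbol, and each of the 9 matched 1 row among the 60832 genes of the table. In these 6 libraries, Sirpa, Lgals9 and Vsir were abundant messages, Cd274 was intermediate, Havcr2, Cd86 and Cd80 were modest, and Cd40 and Pdcd1lg2 were low. After adjustment over all genes tested, none of the 9 passed the test between bevacizumab-sensitive and bevacizumab-resistant samples.

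The libraries hold mouse host RNA labelled as primary liver sinusoidal endothelial cells (LSECs), the cells that line the smallest vessels of the liver. The cells came from male BALB/c-Nu mice, which are without a thymus and therefore poor in T cells. Their livers had been seeded with HCT116, an established human line of colorectal carcinoma. The mice were 4 to 6 weeks old when obtained, and their age when the cells were collected is not stated. There were 3 bevacizumab-sensitive libraries and 3 bevacizumab-resistant libraries. Bevacizumab is an antibody against VEGF-A, given at 10 mg/kg to make the resistant model, for 42 days by one passage of the study and 7 weeks by another. The study's vehicle mice received IgG, but the labels do not say what the mice of the sensitive group received. In both groups the cells were captured with beads against CD146, a surface protein of endothelial and some other cells. The study reports a high purity of CD146-positive cells by flow cytometry. By the labels the cells were cultured for 24 h in DMEM with 10% FBS. No source used here says that each library came from its own mouse, so that p-values measure the spread between these samples, which may be technical. The design asks whether RNA levels in these cells differ between the sensitive and the resistant model.

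Total counts were 17599326 to 20726684 per library, so that 3 counts correspond to 0.145 to 0.170 CPM on these unscaled totals. CPM are counts relative to the library total, which is itself scaled between libraries by the trimmed mean of M-values (TMM) where groups are compared. The library sensitive 2 stood apart, with a median correlation of 0.908 with the others, against 0.970 to 0.974 for the other 5 libraries (log2 scale, across genes). Markers of macrophages and Kupffer cells were far more abundant than those of LSECs. The median of 16 macrophage and Kupffer cell markers was 362 to 1075 FPKM per library (counts divided by gene length and library total, as deposited), whereas the median of 12 LSEC markers was 0.422 to 2.50 FPKM. Mcam, which encodes CD146 itself, had 17, 24 and 79 counts in the sensitive libraries and 8, 6 and 26 in the resistant ones. The values below are therefore given for the RNA in these libraries and not for LSECs alone. In bulk RNA, fewer cells of a type and less RNA per cell cannot be told apart.

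Checkpoint and costimulatory ligands are surface or secreted proteins that adjust lymphocyte and phagocyte responses. CD80 and CD86 bind CD28 on T cells to promote activation, or CTLA-4 to restrain it. PD-L1 and PD-L2 bind the inhibitory receptor PD-1, while VISTA, TIM-3 and galectin-9 also restrain lymphocytes or myeloid cells. SIRP alpha on phagocytes recognises CD47 as a signal against engulfment, and CD40 receives help from CD40 ligand on activated T cells. In the liver, sinusoidal endothelium, Kupffer cells and dendritic cells can each carry several of these proteins and take part in the tolerance for which the organ is known.

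Cd274 and Pdcd1lg2 are neighbours on the plus strand of mouse chromosome 19. Cd274 (ENSMUSG00000016496) lies at chr19:29367455-29388095 and Pdcd1lg2 (ENSMUSG00000016498) at chr19:29410919-29471161, on GRCm38 with GENCODE M21. The gap between them is 22823 bases, and 0 other protein-coding genes start in it. RefSeq promoters on GRCm38.p6 were at hand for 6 of the 9 genes, each taken as the 250 bases before the start and written 5′ to 3′ on the strand of the gene. The pair below is shown because these neighbours differ widely in level. They lie at chr19:29367188-29367437 and chr19:29410669-29410918, both on the plus strand, and neither holds any of the motifs searched.
Cd274: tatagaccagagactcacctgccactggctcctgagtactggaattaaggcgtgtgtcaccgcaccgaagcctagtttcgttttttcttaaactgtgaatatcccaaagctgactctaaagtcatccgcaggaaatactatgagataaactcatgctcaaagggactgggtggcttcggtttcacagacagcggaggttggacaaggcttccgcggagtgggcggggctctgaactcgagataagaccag
Pdcd1lg2: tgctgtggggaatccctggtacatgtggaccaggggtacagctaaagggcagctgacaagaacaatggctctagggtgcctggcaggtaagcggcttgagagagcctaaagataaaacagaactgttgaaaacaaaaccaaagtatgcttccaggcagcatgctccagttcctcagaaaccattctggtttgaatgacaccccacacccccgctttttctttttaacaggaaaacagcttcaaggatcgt

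The next 2 promoters are shown because they were the ones with a motif match, given in capitals. Havcr2 at chr11:46454681-46454930 (plus strand) holds the PU.1 core GAGGAAGT at bases 8 to 1 before the start. Lgals9 at chr11:78984925-78985174 (minus strand) holds the interferon regulatory factor pair (GAAA, any 2 bases, GAAA) on the opposite strand, at bases 55 to 46 before the start.
Havcr2: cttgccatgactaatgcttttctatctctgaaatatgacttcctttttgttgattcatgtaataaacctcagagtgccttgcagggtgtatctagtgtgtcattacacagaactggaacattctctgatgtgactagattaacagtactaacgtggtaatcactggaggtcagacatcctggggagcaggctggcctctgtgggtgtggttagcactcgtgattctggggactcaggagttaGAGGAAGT
Lgals9: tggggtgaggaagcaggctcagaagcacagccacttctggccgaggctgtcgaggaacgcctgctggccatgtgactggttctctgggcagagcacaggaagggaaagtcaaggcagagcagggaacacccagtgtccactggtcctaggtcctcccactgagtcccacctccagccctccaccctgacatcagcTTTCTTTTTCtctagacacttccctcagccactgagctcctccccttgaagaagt

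Motifs were searched as letters on both strands, and the share of 32851 promoters of the same length that hold each one gives its background. The share was 7.02% for the interferon gamma activated site TTCNNNGAA, 2.98% for the interferon regulatory factor pair, 1.41% for the NF-kappa B site (GGG, any 2 bases, TTTCC), 2.44% for GAGGAAGT and 12.4% for the TATA box TATAAA. Only these letters were searched, so that other forms of a site would be missed. The matches are a description of these windows only. The remaining 5 genes lie at chr10:60346851-60372684 (Vsir, plus strand), chr2:129592835-129632228 (Sirpa, plus), chr16:38455561-38496335 (Cd80, plus), chr16:36603869-36666081 (Cd86, minus) and chr2:165055627-165072948 (Cd40, plus). The values of these genes cover all their exons. Some genes overlap them, and the strand setting of the counting is not given in the sources used here. Gm36043 runs antisense to Cd274 and shares 511 exon bases with it, at 41 to 186 counts per library. A930007I19Rik lies antisense to Pdcd1lg2 with 158 to 492 counts and Cdh23 lies on the strand opposite Vsir with 30 to 101 counts, each with 0 shared exon bases.

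**Figure D1:**
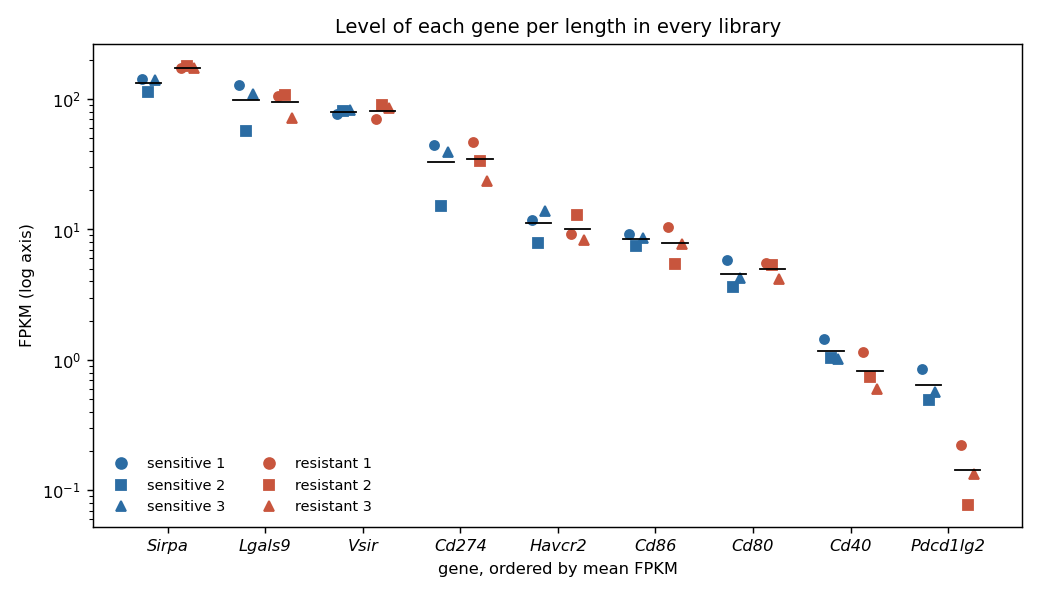
FPKM of the 9 genes in each of the 3 sensitive and 3 resistant libraries on a log axis, with 1 point per library and a line at each group's mean. The levels run from 113 to 179 FPKM for Sirpa to 0.0774 to 0.857 FPKM for Pdcd1lg2.

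The ligands of PD-1 were at very different levels. Cd274 was at 44.2, 15.1 and 39.0 FPKM in the sensitive libraries and 46.9, 33.5 and 23.7 FPKM in the resistant libraries. The 2 groups overlapped, and the lowest value was that of sensitive 2, the library that stood apart. The means were 32.8 ± 15.5 FPKM (SD, n = 3) and 34.7 ± 11.7 FPKM (SD, n = 3), for a resistant over sensitive log2 fold change of 0.05 (95% interval −0.87 to 0.96) and an adjusted p of 0.985 by edgeR's quasi-likelihood test. The interval spans 0.549-fold to 1.95-fold, so that differences within these bounds are compatible with these libraries. It is not a limit of what the test could detect. Without sensitive 2 the log2 fold change was −0.27.

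Pdcd1lg2 was scarce. It had 33, 17 and 23 counts in the sensitive libraries and 9, 3 and 5 counts in the resistant libraries. All 3 resistant libraries were below all 3 sensitive ones, and resistant 2 was at the 3 counts taken as the limit of detection. Per length these were 0.640 ± 0.192 FPKM (SD, n = 3) and 0.144 ± 0.0727 FPKM (SD, n = 3). The log2 fold change was −2.19 (SE 0.638, 95% interval −3.69 to −0.69), which is 0.220-fold, with an unadjusted p of 0.0105 and an adjusted p of 0.940 by edgeR. Across the other settings tried, the adjusted p was 0.469 to 1.

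Pdcd1lg2 therefore did not pass the test. It entered the test only through the sensitive group, since its 3 sensitive libraries, and none of the resistant ones, reached the minimum of 0.508 CPM. Of 45 genes that reached this minimum in exactly the 3 sensitive libraries, 33 (73.3%) had an unadjusted p under 0.05 and 44 (97.8%) had groups that did not overlap, with a median log2 fold change of −2.28. A gene admitted in this way had to be lower in the resistant libraries, and the value of Pdcd1lg2 was close to that median. Without resistant 2 or resistant 3 its unadjusted p was 0.0548 or 0.0522. When sensitive 2 was left out the log2 fold change was −2.28.

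Markers of other cell types were read beside Pdcd1lg2. Summed natural killer cell markers were 2.10 to 7.01 CPM in the sensitive libraries and 0.257 to 1.36 in the resistant ones, without overlap, but 2 of the 8 genes had enough counts to be tested and 0 of them had an unadjusted p under 0.05. Of 12 pan-endothelial markers, 5 had an unadjusted p under 0.05 and were lower in the resistant libraries, beside 2.54% of all genes, among them Erg, an endothelial transcription factor (log2 fold change −1.66, SE 0.405), and Tek, the angiopoietin receptor (−1.93, SE 0.589). Erg had an adjusted p of 0.0418 by DESeq2 and of 0.940 by edgeR. Of the 12 pan-endothelial markers, 11 had a negative log2 fold change (median −1.01). The groups did not overlap for 5 of the 12, beside 9.02% of all genes. The summed pan-endothelial markers overlapped, at 289 to 511 and 83.1 to 422 CPM. Their part in the value of Pdcd1lg2 was not tested.

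The ratio of Cd274 to Pdcd1lg2 on the FPKM scale was 51.6, 30.7 and 68.3 in the sensitive libraries and 212, 433 and 179 in the resistant libraries. Cd274 was thus far more abundant per length than its neighbour in every library. The higher ratios of the resistant libraries rest on 3 to 9 Pdcd1lg2 counts each and were not tested.

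**Figure D2:**
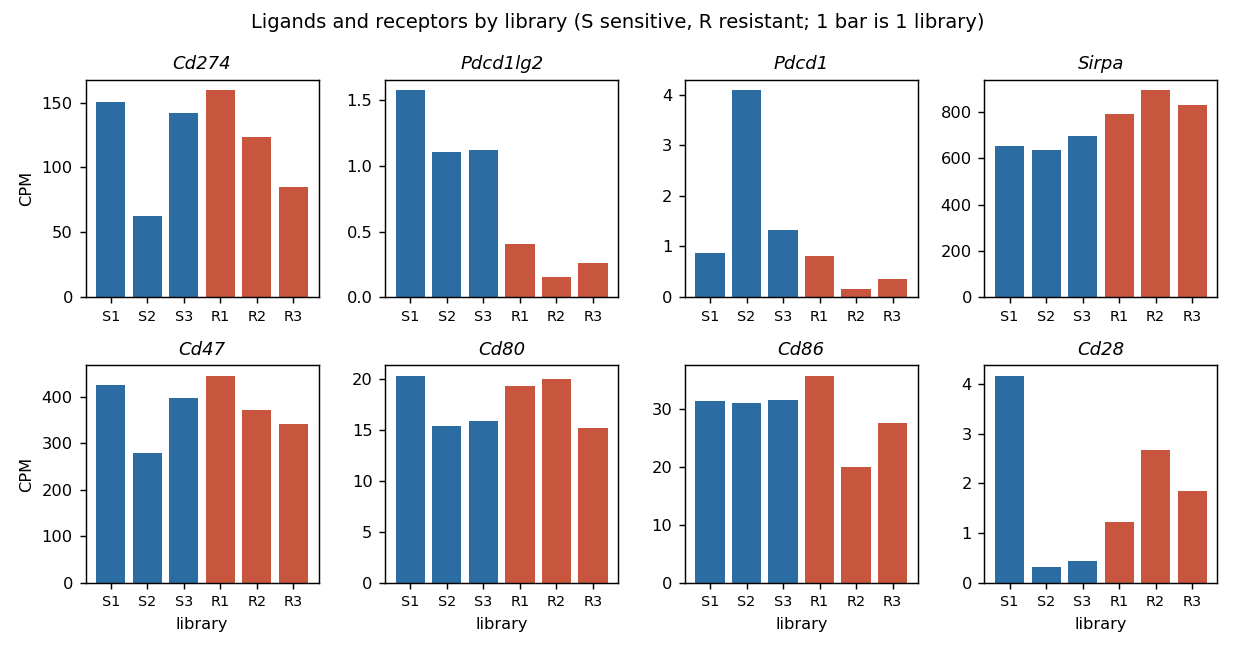
CPM by library (sensitive 1 to 3, resistant 1 to 3), with bars from 0 and a separate axis for each gene. Cd274, Pdcd1lg2, Sirpa, Cd80 and Cd86 are shown with the binding partners Pdcd1, Cd47 and Cd28. Pdcd1lg2 is lower in all 3 resistant libraries and Sirpa is higher in all 3, whereas Cd274, Cd80 and Cd86 overlap between the groups.

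The phagocyte receptor gene Sirpa was the most abundant of the 9 genes. It was at 142, 113 and 141 FPKM in the sensitive libraries and 172, 179 and 172 FPKM in the resistant libraries. All 3 resistant libraries were above all 3 sensitive ones, and sensitive 2 was again the lowest. The means were 132 ± 16.2 FPKM and 174 ± 4.53 FPKM (SD, n = 3 each). The log2 fold change was 0.34 (SE 0.194, 95% interval −0.11 to 0.80), which is 1.27-fold, with an unadjusted p of 0.121 and an adjusted p of 0.940 by edgeR. Without sensitive 2 the log2 fold change was 0.30. The closely related genes Sirpb1a, Sirpb1b, Sirpb1c, Gm9733 and Gm5150 can share reads with Sirpa, and their summed counts were 2.08% to 7.79% of those of Sirpa. Sirpb1a, Sirpb1b and Sirpb1c had log2 fold changes of −0.62, −1.30 and −0.83, opposite in sign to Sirpa. None of these had an unadjusted p under 0.05 by edgeR. Gm9733 had 27, 59 and 31 counts in the sensitive and 11, 15 and 8 in the resistant libraries. Gm5150 had 158, 224 and 162 against 114, 126 and 91. How the counting split reads shared with Sirpa was not tested, and the Sirpa value is uncertain for that reason. Summed macrophage and Kupffer cell markers overlapped between the groups, at 23757 to 42652 CPM in the sensitive and 28144 to 31474 in the resistant libraries.

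The groups of CPM values did not overlap for 2 of the 9 genes, Sirpa and Pdcd1lg2, in opposite directions. Among all 15474 genes tested, 9.02% had groups that did not overlap, 4.38% with the resistant group below and 4.64% with it above. At an adjusted p under 0.05, 0 of the 9 genes were called, as were 0% of all genes tested. At an unadjusted p under 0.05, 1 of the 9 genes was counted, beside 3.08% of all genes (393 or 2.54% lower and 83 or 0.536% higher in the resistant libraries). By DESeq2 and limma-voom 0 of the 9 genes were called as well. The median log2 fold change of the 9 genes was −0.09, with 3 positive and 6 negative, beside 0.008 over all genes tested.

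**Figure D3:**
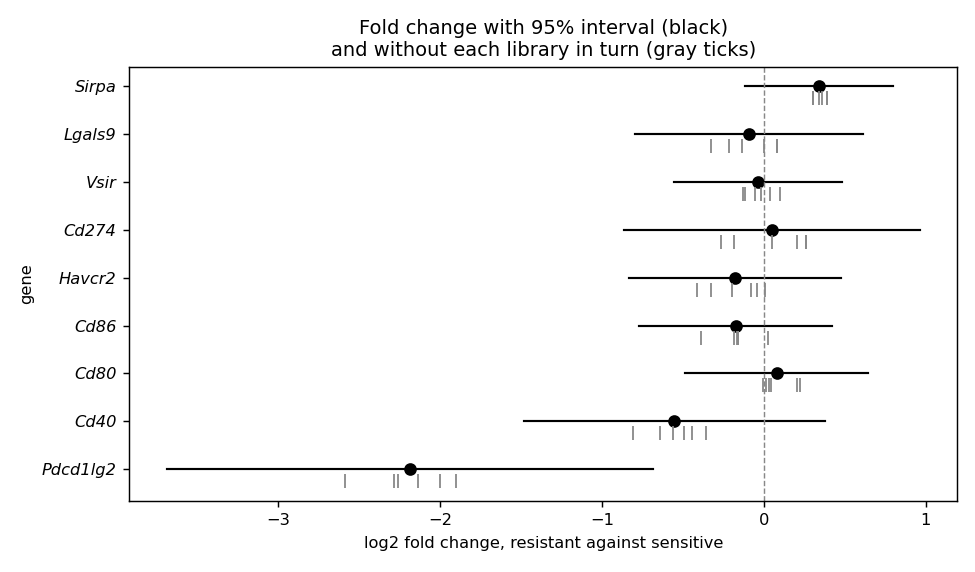
Resistant over sensitive log2 fold change of the 9 genes (black points) with 95% intervals (black bars) and the values when 1 library was left out (gray ticks). The intervals include 0 for 8 genes, and that of Pdcd1lg2, −3.69 to −0.69, does not, although its adjusted p was 0.940.

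Lgals9, which encodes a galactoside-binding lectin that can bind TIM-3, was at 128, 56.9 and 109 FPKM in the sensitive and 105, 106 and 71.1 FPKM in the resistant libraries. The groups overlapped, and the lowest and the highest value both belonged to the sensitive group. The means were 98.1 ± 36.8 FPKM and 94.3 ± 20.1 FPKM (SD, n = 3 each), with a log2 fold change of −0.09 (95% interval −0.79 to 0.61, adjusted p 0.961 by edgeR). Without sensitive 2 it was −0.33. Havcr2, which encodes TIM-3 itself, was lower by an order of magnitude, at 11.7, 7.91 and 13.8 FPKM in the sensitive and 9.27, 12.9 and 8.32 FPKM in the resistant libraries. Its groups overlapped, and the highest value was that of sensitive 3. The log2 fold change was −0.18 (95% interval −0.83 to 0.48, adjusted p 0.940 by edgeR). Vsir, an inhibitory ligand and receptor of myeloid and T cells, was at 77.1, 80.3 and 82.5 FPKM in the sensitive and 70.1, 90.0 and 85.0 FPKM in the resistant libraries. The groups overlapped, with the sensitive libraries inside the range of the resistant ones on the FPKM scale but not on the CPM scale, where sensitive 2 was the highest. Its log2 fold change was −0.04 (95% interval −0.55 to 0.48, adjusted p 0.980 by edgeR).

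The costimulatory genes were lower in level. Cd86 was at 9.15, 7.45 and 8.58 FPKM in the sensitive and 10.4, 5.40 and 7.67 FPKM in the resistant libraries, and Cd80 was at 5.83, 3.62 and 4.26 against 5.54, 5.31 and 4.14 FPKM. Both genes overlapped between the groups. Cd86 had a log2 fold change of −0.17 (95% interval −0.77 to 0.42, adjusted p 0.940 by edgeR) and Cd80 one of 0.08 (95% interval −0.49 to 0.64, adjusted p 0.958). Cd86 exceeded Cd80 in every library, and the ratio of their FPKM values was 1.02, in resistant 2, to 2.06, in sensitive 2. Cd40, the receptor through which activated T cells license antigen-presenting cells, was at 1.44, 1.03 and 1.01 FPKM in the sensitive and 1.15, 0.742 and 0.596 FPKM in the resistant libraries. Only resistant 1 lay within the range of the sensitive group, and the other two resistant libraries were below it. The log2 fold change of Cd40 was −0.55 (SE 0.395, 95% interval −1.48 to 0.38), with an adjusted p of 0.940 by edgeR, from 39 to 96 counts per library.

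Ordered by mean FPKM over the 6 libraries, the genes ran Sirpa, Lgals9, Vsir, Cd274, Havcr2, Cd86, Cd80, Cd40 and Pdcd1lg2. The ranges over libraries were apart between Vsir and Cd274 (a mean ratio of 2.40), between Cd274 and Havcr2 (3.16) and between Cd80 and Cd40 (4.81). The remaining neighbours overlapped, although Sirpa exceeded Lgals9, Cd86 exceeded Cd80 and Cd40 exceeded Pdcd1lg2 in 6 of 6 libraries. Lgals9 exceeded Vsir in 4 of 6 libraries and Havcr2 exceeded Cd86 in 5 of 6, so that neither of these orders held throughout. Against all genes tested, Sirpa was at the 98.2 percentile of mean FPKM, Cd274 at 89.8, Cd80 at 52.7 and Pdcd1lg2 at 10.5.

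Of the 12 receptors and binding partners listed, the lymphocyte genes were scarce, whereas broadly made ones such as Cd47 and Cd44 were abundant. Ctla4 had 0 counts in 5 libraries and 1 count in resistant 1, and Cd40lg had 0 in all 6. A count of 0 allows up to 3 counts, or 0.145 to 0.170 CPM on unscaled library totals, for counting error only. Cd28 was present at 87, 5 and 9 counts in the sensitive and 27, 52 and 36 counts in the resistant libraries, with overlap (log2 fold change 0.21, SE 0.982). Summed T cell markers were 15.9 to 27.0 and 11.1 to 20.7 CPM, of which Cd4, also made by macrophages, gave most, and the T cell gene Cd8b1 had 0 counts in all libraries.

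Pdcd1, which encodes PD-1, had 18, 63 and 27 counts in the sensitive and 18, 3 and 7 counts in the resistant libraries. The groups met at the same count in sensitive 1 and resistant 1 but not on the CPM scale, and sensitive 2 was far above the rest. The log2 fold change was −2.20 (SE 0.874), with an unadjusted p of 0.0394 and an adjusted p of 0.940 by edgeR. Without sensitive 2 it was −1.28, with an unadjusted p of 0.128. Cd47, the SIRP alpha ligand, was abundant at 57.9 ± 17.2 FPKM and 63.0 ± 11.0 FPKM (SD, n = 3 each), with a log2 fold change of 0.07 and an adjusted p of 0.961 by edgeR. Cd44, a hyaluronan receptor that also binds galectin-9, was at a mean of 43.4 and 45.9 FPKM. Rgmb, a PD-L2 partner, had a log2 fold change of 0.42 (SE 0.192, unadjusted p 0.0627) and Selplg, a P-selectin ligand that VISTA can bind, one of −0.62 (SE 0.268, unadjusted p 0.0531) by edgeR.

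Of 78 listed genes in 5 groups around these proteins, 67 were tested, and 0 passed at an adjusted p under 0.05. An unadjusted p under 0.05 was found for 3 (4.48%), all lower in the resistant libraries, and 8 (11.9%) had groups that did not overlap, beside 3.08% and 9.02% of all genes. The 3 included Pdcd1 and Tnfrsf18, which encodes the costimulatory receptor GITR. Both reached the minimum in all 3 sensitive libraries but not in all 3 resistant ones. Of 544 genes of that kind, 19.1% had an unadjusted p under 0.05 and 510 had a negative log2 fold change, with a median of −1.08, so that neither gene is support for a difference. The median log2 fold change was 0.03 for 10 receptors, −0.16 for 17 other B7, TNF and nectin family ligands, −0.77 for 8 other lymphocyte receptors, 0.01 for 18 regulators and −0.13 for 14 signalling genes. Some of the 8 other lymphocyte receptors, Tnfrsf18 among them, reached the minimum in all 3 sensitive libraries but not in all 3 resistant ones. Their median is therefore not support for a difference either.

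**Figure D4:**
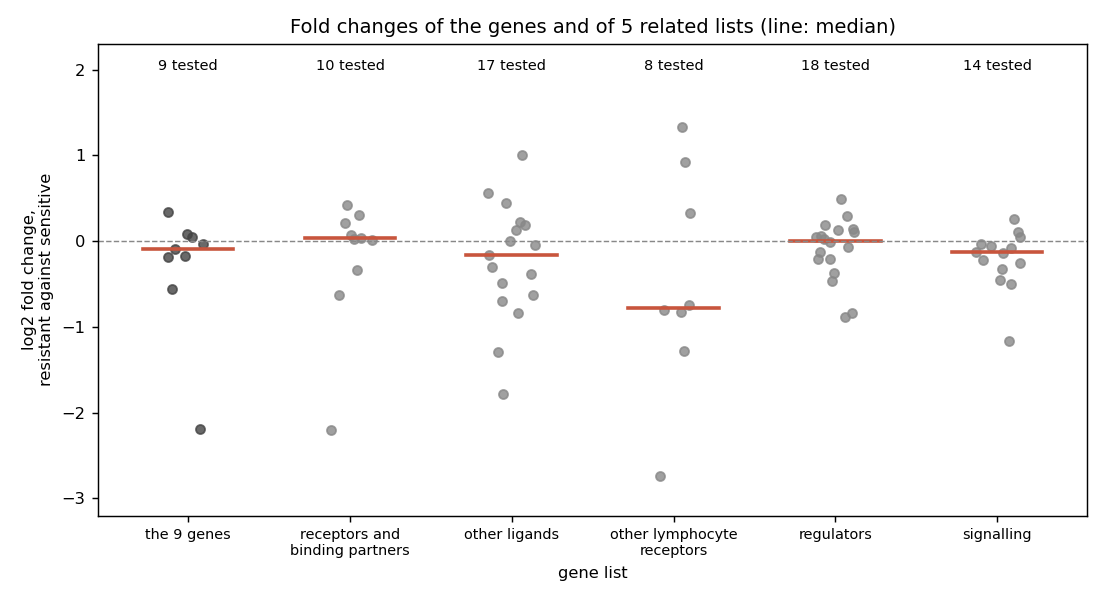
Resistant over sensitive log2 fold change of each tested gene among the 9 genes and 5 lists of related genes, with 1 point per gene and a line at the median of each list. The medians lie between −0.77 and 0.03, and the widest scatter is among lymphocyte receptors with few counts.

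Genes that control the level of PD-L1 were read in the same way. Irf1, the interferon-induced factor that acts on the Cd274 promoter, had a log2 fold change of −0.37 (unadjusted p 0.180 by edgeR) and the kinase gene Jak2 one of 0.05 (0.853). The interferon gamma receptor gene Ifngr1 was at 102 ± 40.3 and 76.6 ± 14.7 FPKM, with overlap. Cmtm6, whose product keeps PD-L1 at the cell surface, was at 101 ± 16.2 and 105 ± 3.41 CPM (log2 fold change 0.06, SE 0.195), and its relative Cmtm4 had a log2 fold change of 0.49 (unadjusted p 0.182 by edgeR). The myeloid factor gene Irf8 was at a mean of 43.5 and 39.7 FPKM.

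Below SIRP alpha, the phosphatase gene Ptpn6, which encodes SHP-1, was at 93.2 ± 11.5 FPKM in the sensitive and 79.1 ± 15.8 FPKM in the resistant libraries, with a log2 fold change of −0.32 (unadjusted p 0.217 by edgeR). Its groups overlapped. Traf2, an adaptor of CD40, had a log2 fold change of −0.45 (unadjusted p 0.194 by edgeR). Among other ligands, Lgals3, which encodes galectin-3, was at 894 to 1220 FPKM in the 6 libraries, above each of the 9 genes, and Pirb, an inhibitory receptor of myeloid cells, was at a mean of 73.0 and 62.4 FPKM. Icosl, the ligand of ICOS, had a log2 fold change of −0.70 (unadjusted p 0.115 by edgeR), and Cd276, which encodes B7-H3, had 8 to 25 counts per library. Tnfrsf4, which encodes OX40, had 27, 16 and 18 counts in the sensitive and 57, 37 and 32 counts in the resistant libraries, without overlap (log2 fold change 0.93, unadjusted p 0.0903 by edgeR). Tnfrsf18 had 20, 67 and 13 counts against 11, 5 and 2, and its log2 fold change of −2.74 became −1.45 without sensitive 2 (unadjusted p 0.0907).

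The level of each gene in the 6 libraries was also set beside all other genes with an average log2 CPM of at least 3, by the root mean square difference of mean-centred log2 values over the 6 libraries. Among 9643 genes, Klf10 was nearest to Cd274 (0.049), Pml to Lgals9 (0.083), Ifnar1 to Havcr2 (0.11), D11Wsu47e to Sirpa (0.032) and Yipf4 to Vsir (0.047). Stard3 was nearest to Cd80 (0.060), 6430548M08Rik to Cd86 (0.083) and Irgm1 to Cd40 (0.090). For Pdcd1lg2, Pik3ip1 (0.35) and Erg (0.37) were the nearest, at a larger distance. The root mean square of Pdcd1lg2 about its own mean was larger as well. It was 1.01, against 0.17 (Vsir) to 0.49 (Cd274) for the other genes, and the distances were not scaled by it. These likenesses rest on 6 points that share their library depth and composition, and are descriptions only.

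Markers of other cell types were read in the same libraries. Summed markers of neutrophils were 624 to 7101 CPM in the sensitive and 323 to 1557 in the resistant libraries, and all 10 had a negative log2 fold change, with a median of −1.68. The sums overlapped, since sensitive 3 was low. Summed dendritic cell markers, from cells that can carry Cd80, Cd86, Cd40 and Pdcd1lg2, were 189 to 386 and 127 to 224 CPM, while Cd209a had 0 counts in every library. The median of the 12 dendritic cell markers was 0.227 to 0.557 FPKM per library. Of these, 7 were tested, 1 with a positive and 6 with a negative log2 fold change (median −0.32). Clec10a, a lectin gene of dendritic cells and macrophages, was the most abundant of the list by mean FPKM. It had a log2 fold change of −0.90 (unadjusted p 0.0521 by edgeR). Timd4, a gene of resident Kupffer cells, had one of −1.70 (unadjusted p 0.0371, adjusted p 0.940), and −1.44 without sensitive 2 (unadjusted p 0.103). It was the 1 of 16 macrophage markers whose groups did not overlap, beside 9.02% of all genes. B cell, LSEC, hepatocyte and stellate cell marker sums overlapped between the groups as well. All 6 hepatocyte markers tested had a positive log2 fold change, with a median of 1.05. Of the stellate cell markers tested, 7 were positive and 2 negative (median 0.47). For LSEC markers these were 2 and 9 (median −0.42), and for B cell markers 1 and 2 (median −0.80). The part of these markers in the levels of the 9 genes was not tested.

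**Figure D5:**
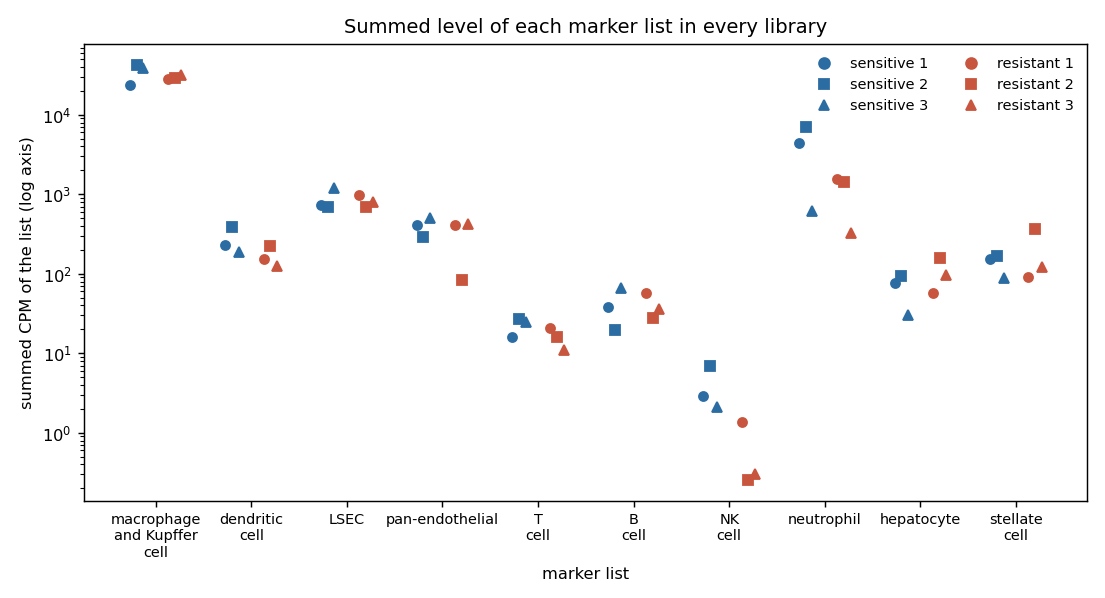
Summed CPM of 10 marker lists in each of the 3 sensitive and 3 resistant libraries, on a log axis, with 1 point per library. Macrophage and Kupffer cell markers, at 23757 to 42652 CPM, stand above every other list. Natural killer cell markers are the list whose sums do not overlap between the groups, but those sums rest on few counts. Of its 8 genes, 2 had enough counts to be tested, and 3 had at most 3 counts in every library.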

How the data were processed

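RNA was measured in 3 sensitive and 3 resistant libraries. The deposited tables hold gene counts and FPKM that the authors made. Per the submitters' processing notes, HISAT2 2.0.5 and featureCounts 1.5.0-p3 were used, DESeq2 1.16.1 and edgeR for comparisons, with mm9 named as build. Both poly(A) selection and rRNA depletion are described for the libraries. The gene lengths behind the deposited FPKM equal the GENCODE M21 (GRCm38) exon bases for all 9 genes, so that coordinates are given on GRCm38, where 52083 of the 60832 identifiers matched. The table of the authors' own comparison (group means, fold changes and p-values) was not used.

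Counts were tested with edgeR 4.0.16 in R 4.3.3 (filterByExpr with the group, a minimum of 10 counts or 0.508 CPM, TMM scaling, robust quasi-likelihood test, two-sided). A total of 15474 genes were tested, with Benjamini-Hochberg adjustment over all of them and a threshold of 0.05. The common biological coefficient of variation was 42.2%. Each 95% interval used the standard error implied by the F statistic. CPM are counts scaled by TMM totals. FPKM served for levels between genes, since they are per length. DESeq2 1.42.0, limma 3.58.1 (voom, and log2(FPKM + 1)), other scalings and filters, a replicate block and leaving out each library were alternatives. The procedure was tested on simulated data. No pair of libraries within a group agreed within sampling noise.

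All 9 genes were named, with direct partners and, per list, the genes of largest log2 fold change (average log2 CPM of at least 3) or highest FPKM. Overlapping genes and close paralogs were named with their counts. Mcam, Cd8b1 and Cd209a were named after their values were seen. Certain genes of the lists are not reported here. The members and lists were chosen with earlier results of these data known.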

Additional observations from a re-analysis of the deposited data

How the results depend on the processing

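None of the 9 genes, and none of the related genes, was called under any setting. Over all genes, 2 were called without the filter on low counts and 24 by DESeq2, against 0 in edgeR with the filter, and at an unadjusted p under 0.05 there were 2036 and 732 against 476. Of 134 log2 fold changes of the 9 genes under alternatives, 120 kept their direction and 14 reversed, all of them in genes that were not called. Vsir became 0.029 with library totals, 0.045 without the filter and 0.023 with limma on log2(FPKM + 1), and Lgals9 became 0.00053 with the latter. Leaving out 1 library gave −0.27 to 0.26 for Cd274, −0.13 to 0.10 for Vsir, −0.41 to 0.0048 for Havcr2, −0.33 to 0.081 for Lgals9, −0.0055 to 0.22 for Cd80 and −0.39 to 0.026 for Cd86, and moved the genes with an unadjusted p under 0.05 from 167 (without resistant 3) to 1056 (without sensitive 3). The cause was not tested. Pdcd1lg2 was not tested when at least 10 counts were required in every library.

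The labels link libraries of the 2 groups by a replicate number only. Same-numbered libraries deviated together with r of −0.00093 to 0.194. These deviations are from means of 3 libraries, so that they cannot show whether such libraries share a batch. With the replicate block 0 genes were called, and 467 had an unadjusted p under 0.05. Pdcd1lg2 rests on 3 to 33 counts per library.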
